A study of Homo sapiens with 2 samples.

Results

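Semaphorins are guidance signals, first known from growing axons, that cells release or display at their surface. Plexins are their main receptors, and neuropilins are co-receptors that hold the secreted semaphorins and also bind vascular endothelial growth factors. Plexin signalling acts through small GTPases on the actin cytoskeleton and on integrin adhesion, and in tumours members of the family are known for effects on migration, invasion and vessel growth in both directions. All protein-coding genes named SEMA or PLXN with a class code, plus NRP1 and NRP2, were taken as members, which gave 31 of the 19488 protein-coding genes of a GRCh37 annotation found in the count tables. They are 20 semaphorins, 9 plexins and 2 neuropilins. The family was picked on the treated against control ratios of these same libraries, so those ratios are given as a description, with no test.

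RNA-seq was done on MDA-MB-231, an established line of triple-negative human breast cancer cells, with 1 library per group. The treated cells received Carpesium cernuum extract (CCE), made from a plant of the daisy family, at 1 µg/mL for 24 h. The protocol with this dose is attached to both samples, the other group is named only as control, and what it received was not given in the sources used here. Both groups are the same line seeded in multi-well plates, and nothing says that either library pools more than 1 well. With 1 library per group, differences have no replicate check, and values compare these libraries, not the conditions. In bulk RNA, fewer cells that express a gene and less of its RNA per cell cannot be told apart.

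Gene counts summed to 5633569 for the control library and 34884501 for the CCE library. After TMM scaling (edgeR's factors for library composition) the CCE library was 6.36 times deeper, so 1 count was worth 0.180 CPM (counts scaled to library size) in the control but 0.0283 CPM after CCE. Every interval below is an exact 95% interval that covers counting error only (Clopper-Pearson for ratios, Poisson for levels). Genes of the mesenchymal state known for this line were high in both libraries, led by the intermediate filament gene VIM at 3739 and 1801 CPM, while the luminal genes ESR1 and FOXA1 had 0 counts in both. Of 6 genes known to be low or absent in the line, GATA3, with 10 and 66 counts, and ERBB2, at 55.4 and 51.8 CPM, were measured. Of the 6 markers of the line, 3 were at least 2-fold lower in the CCE library. None of the 11 endothelial, leukocyte and fibroblast markers found in the tables reached a mean of 1 CPM. Of 4 neural markers, SYP and GFAP did, with opposite ratios: GFAP had 26 and 37 counts, 4.47 times lower after CCE, and SYP 7 and 71, a log2 ratio of 0.67. Their summed level was 5.93 CPM in the control against 3.06 CPM after CCE; their part in the results was not tested.

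Promoter sequences are shown for SEMA3C and PLXNA2, the ligand and the receptor that were at least 2-fold lower with over 200 control counts, and for SEMA3B, whose ratio was the lowest of the measured members. RefSeq's promoter table (GRCh38.p14) gave windows from 250 bases before to 50 after a transcription start for 27 of the 31 members, and each window printed here was placed on GRCh37 by an exact match. Both listed starts of SEMA3C are given, and for SEMA3B, of 5 listed starts, the one nearest the 5′ end of its gene model. The counts per gene do not tell which start was used. Each line runs 5′ to 3′ along the gene's strand, and capitals mark motif matches on either strand.
SEMA3C, first start, chr7:80551656-80551955 (GRCh37, minus strand): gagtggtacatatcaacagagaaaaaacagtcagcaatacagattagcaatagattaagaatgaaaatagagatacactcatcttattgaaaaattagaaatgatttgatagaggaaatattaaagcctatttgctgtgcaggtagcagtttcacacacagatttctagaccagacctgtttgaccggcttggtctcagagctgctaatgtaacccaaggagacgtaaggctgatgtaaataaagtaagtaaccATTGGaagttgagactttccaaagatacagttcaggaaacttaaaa
SEMA3C, second start, chr7:80548318-80548617 (GRCh37, minus strand): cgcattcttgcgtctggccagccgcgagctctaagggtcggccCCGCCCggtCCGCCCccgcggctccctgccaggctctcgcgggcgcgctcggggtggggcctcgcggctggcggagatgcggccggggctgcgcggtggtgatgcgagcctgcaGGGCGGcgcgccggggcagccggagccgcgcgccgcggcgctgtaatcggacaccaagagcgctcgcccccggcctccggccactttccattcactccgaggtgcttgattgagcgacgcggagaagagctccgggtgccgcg
SEMA3B, chr3:50304834-50305133 (GRCh37, plus strand): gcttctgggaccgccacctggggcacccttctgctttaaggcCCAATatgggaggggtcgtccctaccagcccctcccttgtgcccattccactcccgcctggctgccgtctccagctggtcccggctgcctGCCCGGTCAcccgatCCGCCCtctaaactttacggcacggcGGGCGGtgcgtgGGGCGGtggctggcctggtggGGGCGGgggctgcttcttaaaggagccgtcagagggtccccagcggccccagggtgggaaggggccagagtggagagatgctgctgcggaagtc
PLXNA2, chr1:208417680-208417979 (GRCh37, minus strand): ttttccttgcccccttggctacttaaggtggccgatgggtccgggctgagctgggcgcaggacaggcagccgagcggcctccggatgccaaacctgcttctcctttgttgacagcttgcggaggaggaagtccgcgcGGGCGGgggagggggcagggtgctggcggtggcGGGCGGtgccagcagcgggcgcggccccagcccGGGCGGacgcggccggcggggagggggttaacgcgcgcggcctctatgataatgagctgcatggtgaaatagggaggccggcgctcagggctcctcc

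The motifs searched were the AP-1 site TGANTCA, the antioxidant response element core TGACNNNGC, the GC box GGGCGG, the CCAAT box CCAAT, the TATA box TATAAA and the E-box CACGTG. The second start of SEMA3C, the PLXNA2 window and the SEMA3B window held 3, 3 and 4 GC boxes, a motif present in 44.95% of all 35116 windows of the table. A CCAAT box, found in 34.6% of all windows, stood in the first SEMA3C window and in the SEMA3B window. The SEMA3B window also held 1 antioxidant response element core, found in 13.3% of all windows. The other listed SEMA3B starts, not printed, held neither this core nor a CCAAT box. The AP-1 site, the TATA box and the E-box (7.71%, 11.5% and 7.26% of all windows) had no match in these 4 windows. The first SEMA3C window has a GC content of 36.0% and the second 75.7%. A match is a string of letters and no measure of binding.

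Of the 31 members, 28 had a count in at least 1 library, and 21 reached a mean of 1 CPM and are called measured. This filter uses both libraries, so a member can pass through a single one. Among the 21 measured members, 12 had a lower and 9 a higher scaled count in the CCE library, with a median log2 ratio of -0.46, beside 0.05 over all measured protein-coding genes. None was at least 2-fold higher with an interval above 1 and 5 were at least 2-fold lower with an interval below 1, beside 3.26% and 4.33% of the 11637 measured protein-coding genes. At 1.5-fold the numbers were 0 higher and 8 lower, beside 11.5% and 10.9%. The counting interval lay wholly above 1 for 2 members and wholly below 1 for 11, beside 32.7% and 26.6%. With total-count scaling 2 members were 2-fold lower, SEMA3A and SEMA3B, since SEMA3C, SEMA6B and PLXNA2 lie at the line. These shares come from the contrast on which the family was picked and are a description. The 5 lower members were the secreted semaphorins SEMA3A, SEMA3B and SEMA3C, the transmembrane semaphorin SEMA6B and the receptor PLXNA2.

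**Figure D1:**
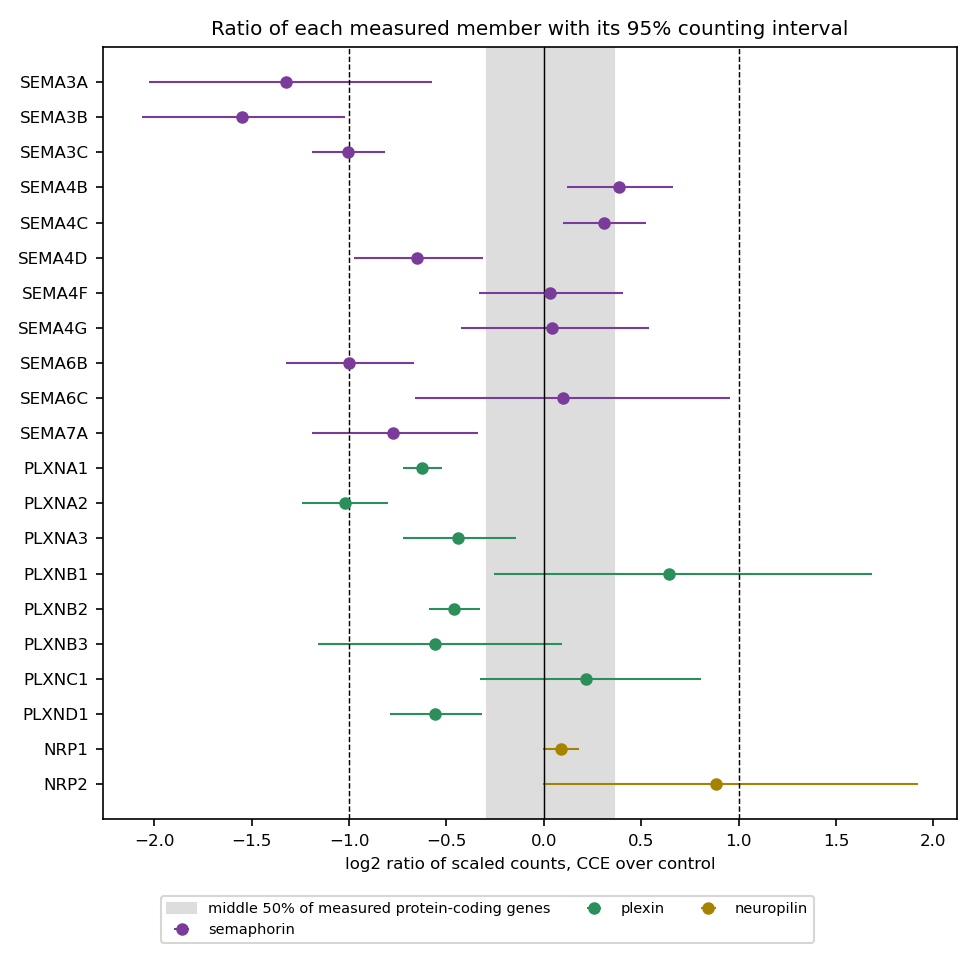
Scaled-count ratio of CCE to control (log2, horizontal axis) of the 21 measured members, with exact 95% counting intervals as bars, dashed lines at 2-fold and the middle 50% of measured protein-coding genes in grey. The 3 class 3 semaphorins lie at or left of the 2-fold line, while NRP1 sits near 0 at 0.09.

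Class 3 semaphorins are secreted, bind neuropilins, and signal through A plexins or PLXND1. The 3 measured genes of this class were all lower in the CCE library, from -1.55 to -1.003 on the log2 scale. SEMA3C, a secreted signal known to promote migration in several tumour types, lies on chromosome 7 from 80371854 to 80551675 (GRCh37, minus strand). It had 305 counts in the control and 967 in the deeper CCE library, or 54.9 and 27.4 CPM. That is 2.005 times lower in the CCE library (interval 1.76 to 2.28), at a log2 ratio of -1.003. SEMA3B, a gene of the chromosome 3 region often lost in lung and breast tumours (50304990 to 50314977, plus strand), had 47 and 102 counts, or 8.45 and 2.89 CPM, 2.93 times lower (2.03 to 4.18). SEMA3A, the classic axon-repelling ligand of NRP1 (chromosome 7, 83585093 to 84122040, minus strand), had 24 and 61 counts, or 4.32 and 1.73 CPM, 2.50 times lower (1.49 to 4.07). The ligands SEMA3A and SEMA3B thus rest on few control counts, and SEMA3C on more.

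Summed over all 7 class 3 genes, the libraries held 380 and 1202 counts, a log2 ratio of -1.01 (-1.17 to -0.84). Without SEMA3C the sum had a log2 ratio of -1.02 (-1.40 to -0.63), from 75 and 235 counts. Per kb of exons, SEMA3C took 81.2% of the class 3 level in both libraries. The other 4 genes of the class stayed below a mean of 1 CPM. Unlike the measured genes of the class, each had a higher scaled count in the CCE library, with an interval that included 1. SEMA3F, a ligand of NRP2, had 4 and 32 counts, a ratio of 1.26 (0.446 to 4.90). SEMA3E, which binds PLXND1 without a neuropilin, had 0 and 23 counts, SEMA3G had 0 and 14 and SEMA3D 0 and 3. At the CCE level, the control library would have held 3.62 counts of SEMA3E, 2.20 of SEMA3G and 0.472 of SEMA3D. A limit of 3 counts, or 0.540 CPM in the control, was set for a count of 0. SEMA3G and SEMA3D lay below it, so a difference was not detectable at this depth. SEMA3E, at 0.651 CPM after CCE, lay just above it, but its counting interval reached down to 0.904-fold and so included 1. SEMA3A, SEMA3C, SEMA3D and SEMA3E lie within 4444519 bases of chromosome 7.

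Class 4 semaphorins are transmembrane ligands, several of which act on B plexins. The 5 measured genes went both ways within a narrow range, from -0.65 to 0.39 on the log2 scale, and none passed 2-fold. SEMA4C, a ligand of PLXNB2, had 204 and 1606 counts, or 36.7 and 45.4 CPM, 1.24-fold higher in the CCE library (1.07 to 1.44). SEMA4B had 128 and 1063 counts, or 23.0 and 30.1 CPM, 1.31-fold higher (1.09 to 1.58). SEMA4D, the ligand of PLXNB1 also known as CD100 on lymphocytes, had 96 and 389 counts, or 17.3 and 11.0 CPM, 1.57 times lower (1.24 to 1.97). SEMA4F (72 and 467 counts) and SEMA4G (43 and 281 counts) had ratios of 1.02 (0.795 to 1.33) and 1.03 (0.744 to 1.45), which lie on the other side of 1 with upper-quartile scaling. In SEMA4G, 22.9% of the exon length overlaps exons of MRPL43 on the opposite strand, and whether counting used strand was not given in the sources used here. SEMA4A, known from immune cells, had 0 counts in both libraries. The limit of 3 counts corresponds to 0.540 CPM in the control and, given the greater depth, 0.0849 CPM in the CCE library. The class as a whole had 543 and 3806 counts, a ratio of 1.10 (1.01 to 1.21). By FPKM SEMA4C (8.86 and 2.26) and SEMA4B (7.18 and 6.88) were lower after CCE, and SEMA4D (2.43 and 2.96) was higher.

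Class 6 and class 7 semaphorins are bound to the membrane, the latter by a lipid anchor. SEMA6B, a ligand of A plexins on chromosome 19 (4542605 to 4581788, minus strand), had 102 and 324 counts, or 18.3 and 9.17 CPM. It was 2.001 times lower in the CCE library (1.59 to 2.51), at a log2 ratio of -1.001, and is the member just inside the 2-fold line. SEMA7A, which binds beta 1 integrins and PLXNC1, is the next outside it, at -0.77 (-1.19 to -0.34), from 60 and 223 counts. By FPKM SEMA7A lay on the other side, at 1.01. SEMA6C had 16 and 109 counts, a ratio of 1.07 (0.631 to 1.94). SEMA6A, with 2 and 37 counts, and SEMA6D, with 4 and 14, had intervals from 0.751 to 24.9-fold and from 0.173 to 2.30-fold. The class 5 genes SEMA5A and SEMA5B, which carry thrombospondin repeats, had 0 counts in both libraries. Of the 13 semaphorins outside class 3, 8 were measured; their summed counts, 727 and 4513, had a ratio of 0.977 (0.903 to 1.06).

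Of the 8 measured plexins, 6 were lower in the CCE library, and 5 of those had an interval below 1. Over all measured protein-coding genes the shares were 45.6% and 26.6%. A plexins, the signalling partners of neuropilins for class 3 ligands, were lower in all 3 measured genes. PLXNA1 (chromosome 3, 126701536 to 126756232, plus strand) had 1054 and 4349 counts, or 190 and 123 CPM, 1.54 times lower (1.44 to 1.65). PLXNA2, also a receptor of class 6 semaphorins (chromosome 1, 208195587 to 208417729, minus strand), had 226 and 707 counts, or 40.6 and 20.0 CPM, 2.03 times lower (1.74 to 2.36). PLXNA3, on the X chromosome, had 121 and 567 counts, or 21.8 and 16.0 CPM, 1.36 times lower (1.11 to 1.65). PLXNA4 had 2 counts in each library, and its interval ran from 0.0114 to 2.17-fold. The summed A plexin counts were 1403 and 5625, a log2 ratio of -0.67 (-0.75 to -0.58). The 3 measured A plexins, with 121 to 1054 control counts, were therefore all lower. The intervals of PLXNA1 and PLXNA2 did not overlap, but they cover counting error only.

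B plexins are receptors of class 4 semaphorins. PLXNB2, their most abundant member in both libraries (chromosome 22, 50713408 to 50746075, minus strand), had 597 and 2759 counts, or 107 and 78.1 CPM, 1.38 times lower (1.257 to 1.503). PLXNB1, the receptor of SEMA4D, was scarce, with 11 and 109 counts, a ratio of 1.56 (0.838 to 3.21). PLXNB3, a receptor of SEMA5A, had 28 and 121 counts, a ratio of 0.680 (0.448 to 1.07), and 20.4% of its exon length overlaps SRPK3 on the same strand. PLXND1, best known as the endothelial receptor of SEMA3E, had 183 and 790 counts, or 32.9 and 22.4 CPM, 1.47 times lower (1.25 to 1.73). PLXNC1, the plexin that binds SEMA7A, had 31 and 229 counts, a ratio of 1.16 (0.796 to 1.75). Over all 9 plexins the summed ratio was 0.673 (0.642 to 0.705), from 2253 and 9633 counts.

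The neuropilins had ratios above 1 by counts. NRP1, the co-receptor of SEMA3A and of VEGF-A (chromosome 10, 33466420 to 33625190, minus strand), had 1089 and 7349 counts, or 196 and 208 CPM, a ratio of 1.06 (0.996 to 1.13). NRP2, which prefers SEMA3F and VEGF-C (chromosome 2, 206546714 to 206662857, plus strand), had 11 and 129 counts, or 1.98 and 3.65 CPM, a ratio of 1.84 (0.997 to 3.79). Both intervals just include 1, while that of their summed counts, at a ratio of 1.07 (1.004 to 1.14), does not. By FPKM NRP1 was lower after CCE, at 11.0 and 5.57, and its log2 count ratio was -0.02 after the GC correction described below. Up to 4.87% of NRP1's exon length overlaps a noncoding gene on the opposite strand, which had 94 and 655 counts.

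Levels were compared between genes per kb of merged exons, since longer genes collect more reads. In the control library the highest members were NRP1, PLXNA1 and PLXNB2, with levels of 17.0 CPM per kb (16.0 to 18.0), 16.9 (15.9 to 17.9) and 14.8 (13.6 to 16.0). NRP1 and PLXNA1 did not differ beyond counting error there. In the CCE library NRP1 stood apart at 18.0 CPM per kb (17.6 to 18.5), above PLXNA1 at 11.0 (10.6 to 11.3) and PLXNB2 at 10.7 (10.3 to 11.1), which overlapped. The NRP1 level was thus 1.01 times that of PLXNA1 in the control, and 1.65 times after CCE. Among the ligands, SEMA3C was first in the control at 8.99 CPM per kb (8.01 to 10.1) and SEMA4C second at 5.86 (5.08 to 6.72). In the CCE library that order was the other way round, with SEMA4C at 7.25 (6.90 to 7.62) and SEMA3C at 4.49 (4.21 to 4.78), the latter not separated from SEMA4B at 4.30 (4.05 to 4.57). The median measured protein-coding gene had 5.29 and 5.67 CPM per kb, and 5 members lay above it in the control, and 4 after CCE. The deposited FPKM values, also scaled to length, gave other orders. In the control PLXNA1 had 15.1, SEMA3C 11.5, NRP1 11.0 and PLXNB2 1.88 FPKM. In the CCE library PLXNA1 had 10.7 FPKM and NRP1 5.57, and SEMA3C at 3.91 stood above SEMA4C at 2.26 and below SEMA4B at 6.88, so neither the lead of NRP1 nor the switch of SEMA3C and SEMA4C was seen there. By FPKM 6 members in the control, and 3 after CCE, lay above the median.

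**Figure D2:**
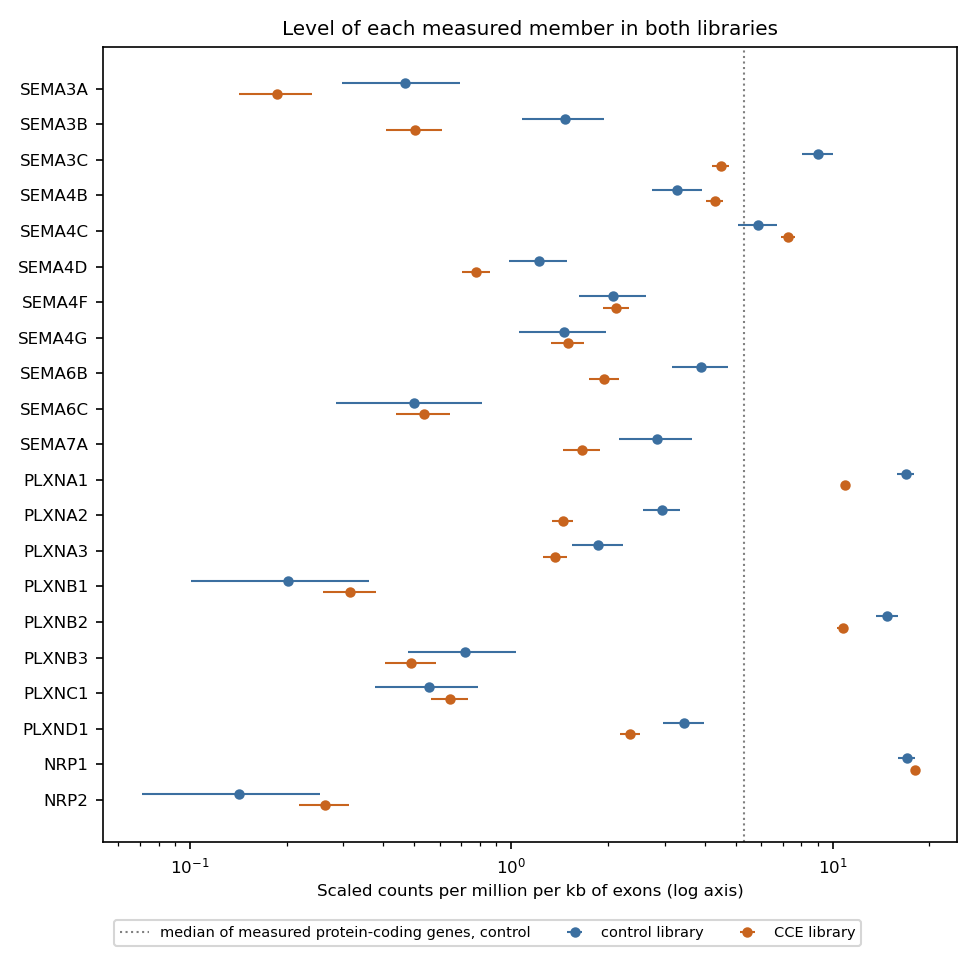
Level in CPM per kb of exons (log axis) of the 21 measured members in the control (blue) and CCE (orange) library, with exact 95% Poisson intervals. The dotted line is the control median of measured protein-coding genes, 5.29, which NRP1, PLXNA1, PLXNB2 and SEMA4C exceed in both libraries.

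The whole libraries differed with GC content: the median log2 ratio of protein-coding genes ran from 0.19 in the decile with the lowest exonic GC to -0.20 in the decile with the highest. The measured members had a median GC of 59.0%, against 47.4% over all measured protein-coding genes. After subtraction of the median of each gene's GC decile, the members' median log2 ratio was -0.35. SEMA3C and SEMA3A, of low GC, then had -1.20 and -1.51, SEMA3B had -1.35 and PLXNA2 -1.04. SEMA6B, the member with the highest GC at 68.3%, had -0.80 and was no longer 2-fold lower, and PLXNA1 had -0.43. Of the other plexins with lower counts, PLXND1 had -0.47, PLXNB3 -0.36, PLXNA3 -0.35 and PLXNB2 -0.26. NRP1 had -0.02.

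**Figure D3:**
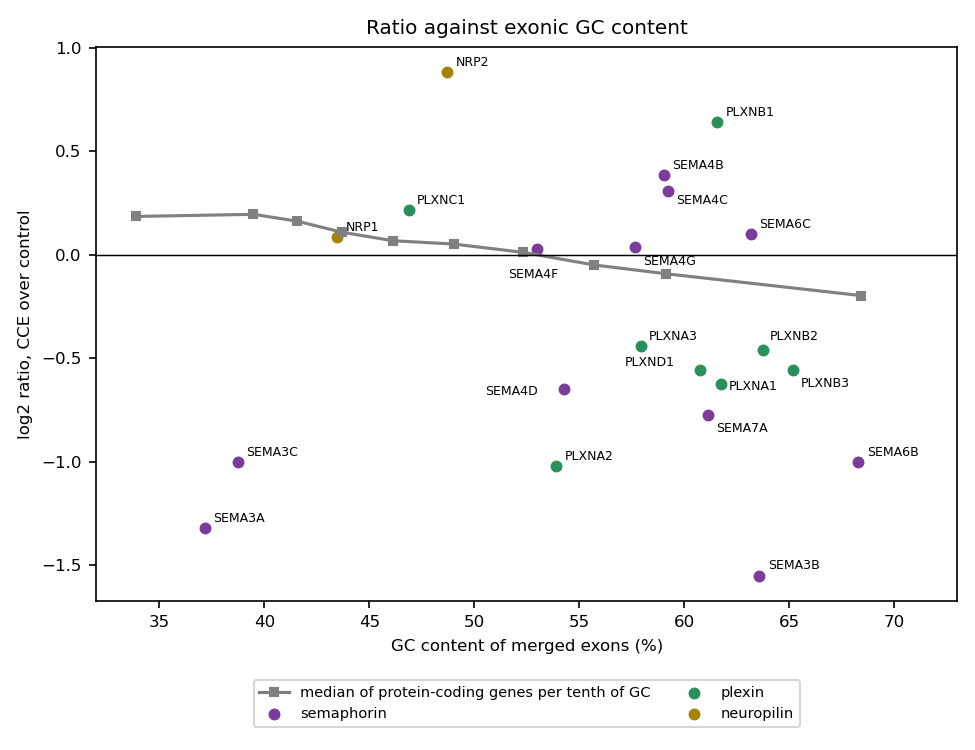
Log2 ratio (CCE over control) of the 21 measured members against the GC content of their merged exons, with the median of measured protein-coding genes per decile of GC in grey. The grey line falls from 0.19 to -0.20, and SEMA3A and SEMA3C lie far below it at the low end.

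The deposited FPKM values gave a partly different picture. Of the 21 measured members, 13 had a log2(FPKM + 1) ratio of the same sign as their count ratio, 7 of the opposite sign, and SEMA3A was listed at 0 FPKM in both libraries. SEMA3C was lower by this measure too, at 11.5 and 3.91 FPKM, as was PLXNA2 at 4.72 and 1.69 FPKM. Of the 12 members with lower counts, 8 had lower FPKM, beside 65.4% of all measured protein-coding genes with lower counts. These 8 were the 6 plexins, SEMA3C and SEMA6B. SEMA7A turned, at 0.288 and 1.59 FPKM, a log2(FPKM + 1) ratio of 1.01, and SEMA4D turned at 2.43 and 2.96 FPKM. SEMA3B was listed at 0 FPKM in the control and 0.874 FPKM in the CCE library, opposite to its 47 and 102 counts. Among the 9 members with higher counts, 5 had higher FPKM: NRP2, PLXNC1, SEMA4F, SEMA4G and SEMA6C. All 5 were listed at 0 FPKM in the control, from where the ratio could not fall below 0. The others had lower FPKM: NRP1 had 11.0 and 5.57 FPKM, SEMA4C 8.86 and 2.26, SEMA4B 7.18 and 6.88 and PLXNB1 0.984 and 0.704. In the control library 7 measured members were listed at 0 FPKM, although they had between 11 (NRP2) and 72 (SEMA4F) counts. The FPKM values come from the same libraries and are no independent check.

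**Figure D4:**
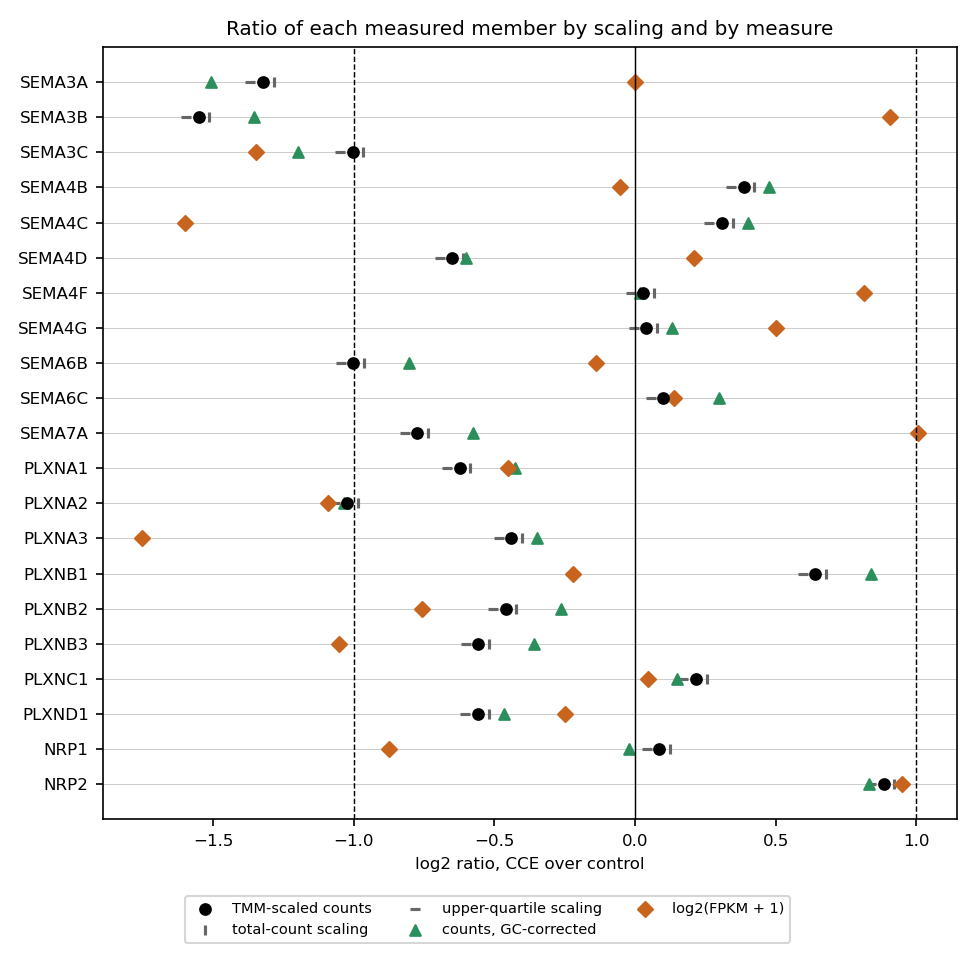
Log2 ratio (CCE over control) of each measured member by TMM-scaled counts (black), other scalings (ticks), GC-corrected counts (green) and log2(FPKM + 1) (orange). SEMA3C and PLXNA2 lie near or beyond -1 by every measure drawn, while SEMA3B and SEMA4C change side with FPKM.

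Genes that act with the family were counted in the same way, beside all measured protein-coding genes, of which 3.26% were 2-fold higher, 4.33% 2-fold lower and 45.6% had a ratio below 1. Of 10 co-receptors and partners of plexins, 9 were measured and none passed 2-fold; the median log2 ratio was -0.10. The receptor tyrosine kinase gene MET, which associates with B plexins, had 1387 and 9091 counts and a log2 ratio of 0.04 (-0.04 to 0.13). ITGB1, the beta 1 integrin bound by SEMA7A, had -0.09 (-0.13 to -0.05), and GIPC1, which binds the neuropilin tail, -0.46 (-0.57 to -0.35). The adhesion gene NRCAM had 0.89 (0.17 to 1.70), the immune receptor gene CD72 0.45 (0.09 to 0.83) and the VEGF receptor gene KDR -0.70 (-1.64 to 0.35). Of the 4 measured VEGF ligands and receptors, none passed 2-fold. VEGFA, which binds NRP1, had 0.11 (0.04 to 0.18), VEGFC -0.22 (-0.38 to -0.07), VEGFB -0.50 (-0.63 to -0.37) and PGF -0.93 (-1.57 to -0.25). By FPKM, MET and VEGFA lay below 0. The exons of ITGB1, CD72 and VEGFA overlap another gene.

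Of 41 cytoplasmic effectors of plexins, 37 were measured, none passed 2-fold, and 3 were at least 1.5-fold higher and 3 lower, beside 11.5% and 10.9% of all measured genes; the median was -0.19. The largest differences among them were in CDK5R1, the activator of the kinase CDK5 in semaphorin signalling, at -0.89 (-1.35 to -0.40), the kinase gene FYN at -0.82 (-1.05 to -0.59), DPYSL3, of the collapsin response mediators, at -0.79 (-1.74 to 0.26) and ARHGAP5, a GTPase-activating protein, at 0.77 (0.63 to 0.90). The abundant CFL1, which encodes the actin-severing cofilin, and RHOA both had -0.37 (-0.40 to -0.33 and -0.42 to -0.32). Among 8 proteases that cut semaphorins, 6 were measured and 5 of these had a ratio above 1, 2 of them at least 1.5-fold, beside 11.5% of all measured genes, and none passed 2-fold. FURIN, which processes class 3 semaphorins, had 0.59 (0.40 to 0.78), ADAM17, a surface sheddase, 0.98 (0.82 to 1.13), ADAMTS1 0.58 (0.02 to 1.20), ADAM10 0.15 (0.02 to 0.29) and MMP14, which sheds SEMA4D, -0.07 (-0.16 to 0.03). By FPKM, ADAMTS1 lay below 0 and DPYSL3 above 0. The exons of ARHGAP5, CFL1, RHOA, ADAM17 and ADAM10 overlap another gene.

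In the other guidance families 1 gene was 2-fold higher and 1 lower, of 17 measured, beside 3.26% and 4.33% of all measured protein-coding genes. Of 12 netrins and netrin receptors, NTN4 alone was measured, at 0.10 (-0.03 to 0.24). Of 10 slits, robos and their partners 6 were measured, with a median of -0.54. ROBO4, best known from endothelium, was at least 2-fold lower at -1.58 (-1.98 to -1.17) from 78 and 166 counts, but its exons overlap another gene and it lay above 0 by FPKM. SRGAP1 had -0.90 (-1.13 to -0.67), SLIT2 -0.76 (-1.18 to -0.33), ROBO3 -0.31 (-0.78 to 0.18), ROBO1 0.20 (-0.09 to 0.49) and SRGAP2 0.04 (-0.20 to 0.28). Of 22 ephrins and Eph receptors 10 were measured, with a median of -0.07. EFNA1, an ephrin ligand, was 2-fold higher at 1.06 (0.46 to 1.73) from 24 and 319 counts, though below 0 by FPKM. EPHA2, the most abundant of them per kb, had -0.10 (-0.18 to -0.01), EPHB2 -0.78 (-0.94 to -0.63), EPHA1 -0.49 (-0.72 to -0.24), EPHA4 0.46 (-0.01 to 0.96) and EFNA4 -0.26 (-0.71 to 0.21). By FPKM, SRGAP1 and ROBO3 lay above 0 and EPHA4 below 0. The exons of SRGAP1, EPHB2, EPHA1, EPHA4 and EFNA4 also overlap another gene.

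**Figure D5:**
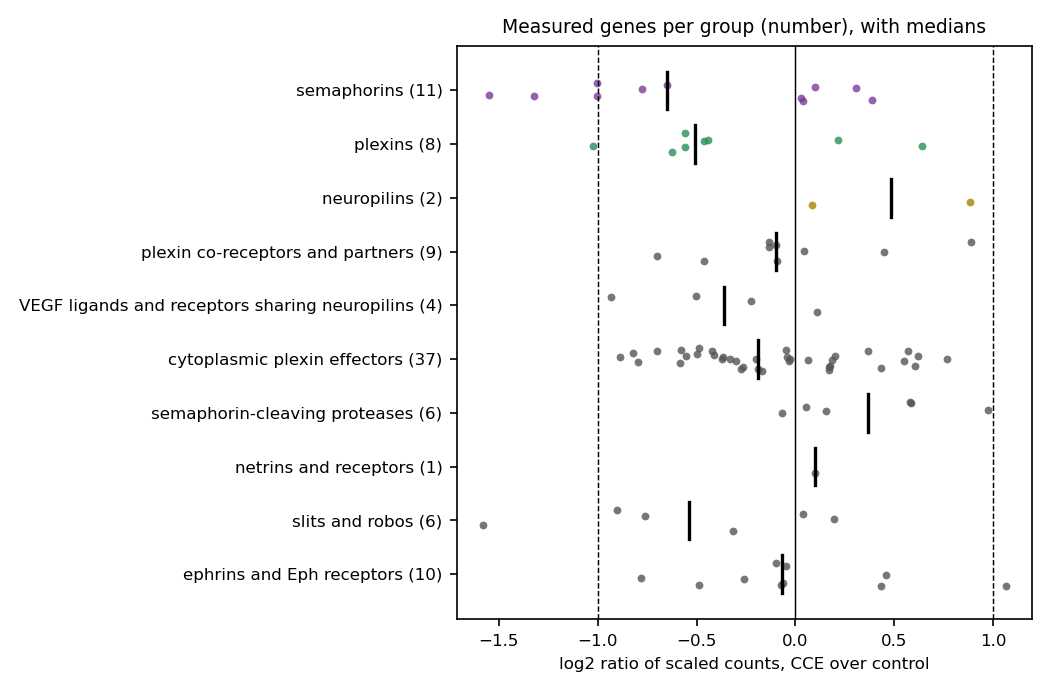
Log2 ratio (CCE over control) of every measured gene of the family (coloured) and of the related lists (grey), with the number of genes in brackets, a black bar at each median and dashed lines at 2-fold. Semaphorins and plexins have medians of -0.65 and -0.51, and the 37 cytoplasmic effectors lie within 2-fold.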

How the data were processed

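RNA was measured in 1 control and 1 CCE library of MDA-MB-231. The authors deposited raw counts per Ensembl gene (63677 IDs) and FPKM values with several rows per gene, which were summed here. HISAT2 and the build hg19 (GRCh37) appear per the submitters' processing notes. The counter, whether it used strand, its annotation and the FPKM program were not given in the sources used here. Closing rows that name no gene (62.9% and 66.8% of records) were left out of library sizes.

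Symbols, positions, merged exon lengths and GC came from GENCODE release 44 on GRCh37 (55665 IDs matched). Libraries were scaled by TMM (edgeR 4.0.16, R 4.3.3). Log2 ratios of scaled counts used no pseudocount; the 95% intervals came from scipy 1.17.1. Genes with a mean of 1 CPM or more count as measured, and were called at 2-fold with an interval excluding 1. With 1 library per group there is no test and no p-value. The ratios, intervals and calls were run on simulated Poisson counts with known ratios at the depths of these libraries. Such counts hold no spread between libraries, so the run cannot check the calls against replicates. Alternatives were other scalings (total count, upper quartile, DESeq2 1.42.0), FPKM at pseudocounts of 1 and 0.1, GC and length deciles, a pseudocount of 0.5 CPM, other count minimums, genes without exon overlap and a 1.5-fold call.

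The members and lists were chosen with earlier results of these data known. Named genes were every measured member and, per list, up to 4 with the largest absolute log2 ratio and the 2 most abundant per kb.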

Additional observations from a re-analysis of the deposited data

How the results depend on the processing

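The number of members at least 2-fold lower was 5 with TMM, upper-quartile and DESeq2 scaling. It was 2 with total-count scaling, because PLXNA2, SEMA3C and SEMA6B lie within 0.03 of the 2-fold line on the log2 scale, 3 with a pseudocount of 0.5 CPM and 8 at 1.5-fold. By FPKM, 1 member (pseudocount 1) and 6 members (pseudocount 0.1) were at least 2-fold higher, where counts gave 0. On the same scales 5 and 6 were at least 2-fold lower, with no interval. The share of all measured protein-coding genes by FPKM is not given here, so these numbers have no background beside them. The 1 higher member at a pseudocount of 1 is SEMA7A, at 1.01. The 5 lower members at a pseudocount of 1 were PLXNA2, PLXNA3, PLXNB3, SEMA3C and SEMA4C. Of these, only PLXNA2 and SEMA3C were also called by counts, and SEMA4C had a log2 count ratio of 0.31. SEMA3B turned to 0.91 and 3.28 on the 2 FPKM scales, and the cause was not tested. The members' median stayed below 0 under each alternative that gives one, from -0.56 to -0.14. Single members changed sign in 7 cases with each FPKM scale, 3 with length deciles, 2 with upper-quartile scaling and 1 with GC deciles. Over the related lists, 2 genes were called; the number was 4 with length deciles, 1 with a pseudocount of 0.5 CPM, 1 among genes without exon overlap, 15 at 1.5-fold, and 24 and 29 by FPKM at pseudocounts of 1 and 0.1. Depth limits the scarce members: 8 of the 21 measured had under 50 control counts. No paired analysis was possible because each group has 1 library, and for the same reason no replicate could be left out.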

Other observations

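Antisense genes beside the semaphorins were counted separately in the files. SEMA3F-AS1, a noncoding gene on the opposite strand that shares 110 bases of exon with SEMA3F, had 82 control counts and 543 after CCE, against 4 and 32 for SEMA3F itself. Its log2 ratio was 0.06 (-0.28 to 0.41, a counting interval). SEMA6A-AS1 had 3 and 10 counts and SEMA3B-AS1 0 and 2. MRPL43, a mitochondrial ribosomal protein gene that overlaps SEMA4G on the opposite strand, had 356 and 2576 counts and a log2 ratio of 0.19 (0.03 to 0.35), beside 0.04 for SEMA4G. CEP83, which overlaps PLXNC1 on the opposite strand, had 0.68 (0.36 to 1.02), beside 0.22 for PLXNC1. How reads in the shared exons were divided was not tested.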
